A study of Mus musculus with 9 samples.

Results

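The regions described here carried acetylated histone H2B without a listed peak of acetylated histone H3 in control cells and lay close to the ends of protein-coding genes. A region of the AcH2B siControl list on chromosomes 1 to 19 or X was a member when it overlapped no AcH3 siControl region by 1 bp or more and its midpoint was at most 10 kb from an end of a protein-coding gene. Of 20043 AcH2B siControl regions on these chromosomes, 3002 were members. They were chosen by the peak calls of the AcH2B and AcH3 siControl libraries, so the siControl values below describe the choice and are not tested.

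All libraries came from the mouse preadipocyte line 3T3-L1, whose cells turn into adipocytes in culture when induced. Cells had been transfected with a negative control siRNA (siControl), an siRNA to the malic enzyme ME1 (siME1) or an siRNA to the malic enzyme ME2 (siME2), and differentiation was induced 2 days later in every group. They were fixed in 1% formaldehyde 7 days after induction. Chromatin immunoprecipitation and sequencing was done with antibodies to acetylated H3, acetylated H2B and the deacetylase HDAC3, with 1 library for each combination and no replicate. Each difference given below is therefore a difference between libraries, and the intervals on percentages (Wilson, 95%) cover counting error only. The HDAC3 libraries carry titles that name H3, and they are grouped here by their antibody label.

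Histone tails are acetylated by acetyltransferases such as CBP and p300 and deacetylated by complexes such as HDAC3 with NCoR. Acetylated H3 is found at active promoters and enhancers, and H2B tails carry several acetylated lysines that are likewise found at active enhancers and promoters. Many enhancers lie some distance from the start of the gene they act on, and the starts of widely used genes mostly lie in CpG islands, stretches rich in CG dinucleotides. ME1 makes NADPH from malate in the cytosol, and ME2 is a mitochondrial malic enzyme. The labels do not give the extent of knockdown, and the peak tables hold no transcript levels.

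Sequence could be shown for the members that lay over an annotated start, since only promoter windows were at hand. Of 21020 windows holding the 250 bases before a RefSeq start (GRCm38), 46 windows of 43 genes were overlapped by a member and by no AcH3 siControl region. These promoters were poor in CG dinucleotides, with a median of 3 per window against 10 over all windows. The windows of 4 of the highest-scoring members are printed with each CG in capitals, 5′ to 3′ on the gene's strand, to show how many each holds. They stand before the starts of Col6a2 (a chain of collagen VI, chr10:76623631-76623880, minus strand), Efemp1 (the matrix glycoprotein fibulin-3, chr11:28852955-28853204, plus strand), Nupr1 (a stress-induced transcriptional regulator, chr7:126625471-126625720, minus strand) and Nr6a1 (an orphan nuclear receptor, chr2:38926462-38926711, minus strand).
Col6a2: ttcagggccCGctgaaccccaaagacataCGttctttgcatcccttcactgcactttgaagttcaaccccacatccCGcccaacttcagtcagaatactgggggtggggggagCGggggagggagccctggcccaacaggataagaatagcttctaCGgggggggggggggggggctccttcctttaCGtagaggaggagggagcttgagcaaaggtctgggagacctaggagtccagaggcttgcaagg
Efemp1: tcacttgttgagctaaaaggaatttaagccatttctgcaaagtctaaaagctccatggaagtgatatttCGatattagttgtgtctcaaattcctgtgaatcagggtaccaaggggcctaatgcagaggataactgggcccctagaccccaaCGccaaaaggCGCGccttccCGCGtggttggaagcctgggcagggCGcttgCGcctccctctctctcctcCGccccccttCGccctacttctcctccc
Nupr1: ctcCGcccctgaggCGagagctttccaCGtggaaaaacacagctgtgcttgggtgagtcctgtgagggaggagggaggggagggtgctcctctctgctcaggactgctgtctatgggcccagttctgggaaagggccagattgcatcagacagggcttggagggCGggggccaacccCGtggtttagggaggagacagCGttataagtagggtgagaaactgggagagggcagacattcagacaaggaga
Nr6a1: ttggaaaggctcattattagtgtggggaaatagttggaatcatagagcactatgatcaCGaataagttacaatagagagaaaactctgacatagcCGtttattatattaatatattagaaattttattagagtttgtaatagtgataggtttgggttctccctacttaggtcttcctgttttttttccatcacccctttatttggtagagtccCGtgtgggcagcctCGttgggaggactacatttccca
The window of Efemp1 held 10 CG dinucleotides, as many as the median of all windows, those of Col6a2 and Nupr1 held 6 each, and that of Nr6a1 held 4. All of these are above the median of 3 under members. A window stands for a single start, not for all starts of its gene. Another start of Col6a2, with 14 CG dinucleotides, lay under an AcH2B region overlapping AcH3. Pdcd4, Ddr1 and Rab3il1, also among the genes with a member over a start, likewise had other starts under such regions. For contrast, the promoters of Bcl6 (a transcriptional repressor, chr16:23988853-23989102, minus strand) and Zfp827 (a zinc finger protein, chr8:79028187-79028436, plus strand) lay under AcH2B regions of very high score that did overlap AcH3.
Bcl6: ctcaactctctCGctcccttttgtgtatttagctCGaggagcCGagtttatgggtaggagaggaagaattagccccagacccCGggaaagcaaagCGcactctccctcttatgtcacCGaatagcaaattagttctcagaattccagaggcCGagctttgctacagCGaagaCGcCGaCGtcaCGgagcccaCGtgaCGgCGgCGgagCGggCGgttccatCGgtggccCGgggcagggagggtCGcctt
Zfp827: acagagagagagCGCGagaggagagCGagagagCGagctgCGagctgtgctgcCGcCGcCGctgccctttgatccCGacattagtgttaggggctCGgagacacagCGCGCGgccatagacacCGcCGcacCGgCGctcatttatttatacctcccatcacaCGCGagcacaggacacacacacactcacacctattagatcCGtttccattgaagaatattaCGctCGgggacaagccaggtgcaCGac
These windows held 21 and 23 CG dinucleotides.

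The same difference held across the groups of promoters. The ratio of observed to expected CG dinucleotides was above 0.6, a common limit for CpG islands, in 5 of 46 windows under members (10.9%). It was above that limit in 66.6% of the 911 windows under AcH2B regions overlapping AcH3, in 79.6% of the 8031 windows under AcH3 without AcH2B and in 20.6% of the 12032 windows under neither. The median GC content was 51.2% under members, 62.8% under AcH2B with AcH3 and 50.4% under neither. In composition, the promoters under members were thus nearer to those with neither mark than to those with AcH3. The GC box, GGGCGG on either strand, was in 28.3% of the member windows (17.3 to 42.5%), in 60.2% of those under AcH2B with AcH3, in 27.3% of those under neither and in 43.0% of all windows. The ETS motif CCGGAA was in 2.17% (0.385 to 11.3%), 18.8%, 6.82% and 15.1%, and both motifs contain a CG. The TEAD motif GGAATG was in 21.7% of the member windows (12.3 to 35.6%), 13.1% of those under neither and 11.6% of all, and the AP-1 motif TGANTCA was in 6.52% (2.24 to 17.5%) and 6.18%. With 46 windows these intervals are wide, and a match is a run of letters, not a bound site. The windows lay under 43 members, and overlapping windows of the same gene were counted separately. Those of Rab3il1 and of Gask1a held the TEAD motif each time, so its interval is too narrow. A further 16 windows were touched by a member and, beside it, by an AcH3 siControl region, and they are not counted here. No member overlapped a miRNA hairpin of the RefSeq table.

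**Figure D1:**
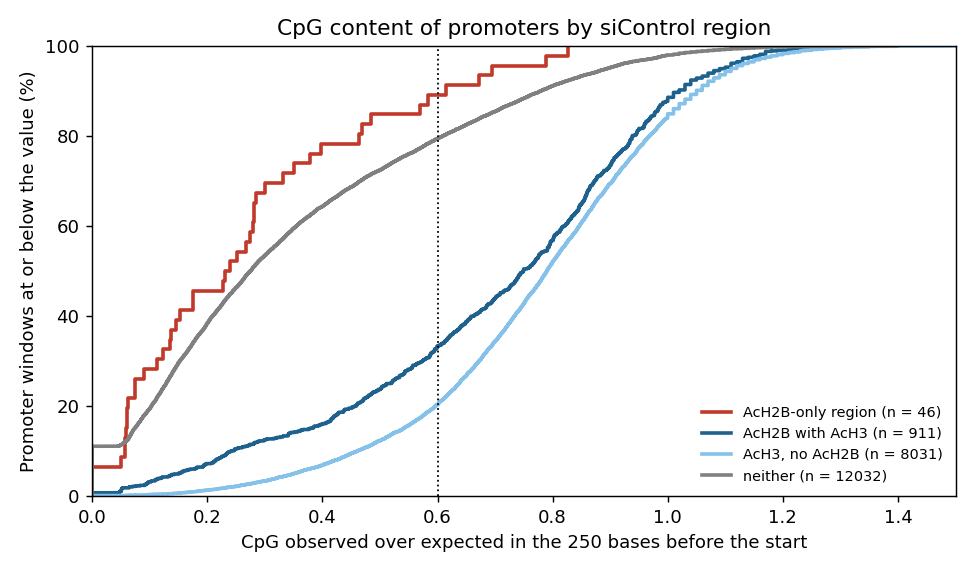
Cumulative share of promoter windows (vertical axis, %) by the ratio of observed to expected CpG in the 250 bases before the start (horizontal axis), for windows under an AcH2B-only region, AcH2B with AcH3, AcH3 alone or neither in siControl. The curve of the 46 windows under AcH2B-only regions lies with that of windows under neither mark, and 10.9% of them pass 0.6 (dotted line) against 66.6% under AcH2B with AcH3.

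In siControl, the members were narrow and moderately enriched. Their median fold over background, the authors' value at the highest summit, was 4 (quartiles 3.45 and 4.63), and their median width was 412 bp. A single summit was found in 2625 of them (87.4%), and together they covered 1.57 Mb. AcH2B regions that overlapped AcH3 near gene ends had a median fold of 4.45 and a median width of 490 bp, while AcH2B-only regions farther than 10 kb had 3.98 and 426 bp. The AcH3 siControl library, which decided membership, was the shallowest of the acetylated libraries. Its depth was estimated at 6.75 fragments per kb of mappable genome, against 7.35 to 8.42 in the other acetylated libraries and 6.04 to 7.79 for HDAC3. No fewer than 8 fragments stood at any AcH3 siControl summit and no fewer than 11 at any AcH2B siControl summit, so a member is a region where AcH3 did not reach the list, not one shown to lack AcH3.

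The members were less gathered at the ends themselves than the AcH2B regions near ends that overlapped AcH3. A midpoint within 1 kb of a gene end was found for 422 members (14.1%, 12.9 to 15.3%), against 47.6% of those regions. Members did thin out with distance. The stretch from 1000 to 2000 bp held 13.4% of them, and the wider stretch from 8000 to 10000 bp held 16%. The median distance to an end was 4088 bp for members and 1131 bp for the AcH3-overlapping regions. Of the AcH3 siControl regions, 48.2% had their midpoint within 1 kb of a gene end, and the rule takes out AcH2B regions that overlap them. The contrasts with AcH3-overlapping regions in distance and in kind of end are thus partly set by the rule. How far was not tested. Where the strand of the nearest gene was known, the nearest end was a start for 1110 of 2151 members (51.6%, 49.5 to 53.7%) and for 80.2% of the AcH3-overlapping regions. Members thus lay about as often by the far end of a gene as by its start, but of those within 1 kb of an end 182 of 306 (59.5%, 53.9 to 64.8%) had a start nearest, against 91.5% of the AcH3-overlapping regions. A midpoint inside a protein-coding gene was found for 1314 members (43.8%), the same share as over all AcH2B siControl regions (43.8%). The share was 63.9% for the AcH3-overlapping regions near ends and 34.3% for AcH2B-only regions farther from gene ends. Many members stood beside an AcH3 region, since an AcH3 siControl region lay within 1 kb of 845 (28.1%), within 5 kb of 53.6% and within 10 kb of 65.9%. These shares were not worked out over all AcH2B siControl regions or over AcH2B-only regions farther from gene ends. Whether this closeness is particular to members was therefore not tested.

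**Figure D2:**
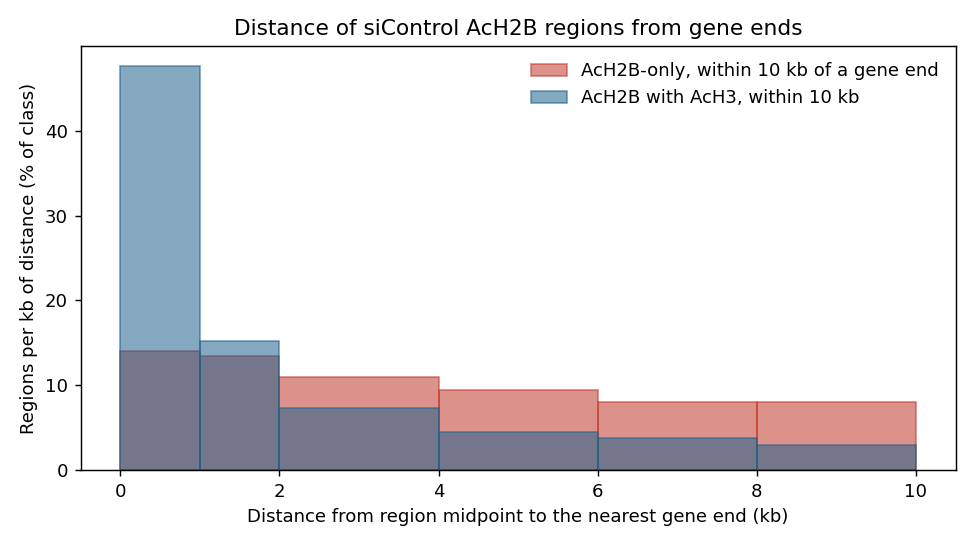
Regions per kb of distance (vertical axis, % of class) against the distance from the region's midpoint to the nearest gene end (horizontal axis, kb), for AcH2B-only regions and AcH2B regions overlapping AcH3, both within 10 kb. AcH3-overlapping regions are concentrated in the bin nearest to the end, with 47.6% there. AcH2B-only regions spread over all bins, with 14.1% in the nearest and fewer per kb farther out.

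Many members stood in chains. Another member lay within 5 kb of 1857 (61.9%). Joining such neighbours left 1780 groups, of which 1145 (64.3%) were single members without a neighbour. Chains of 5 or more members numbered 70 and held 462 members (15.4%). AcH2B regions in general are as crowded, since 78.7% of members and 76.9% of all AcH2B siControl regions had another AcH2B region within 5 kb. A member lay near an end of 1898 of 21631 protein-coding genes (8.77%), with 1 member at 1043 genes, 2 at 447 and 3 or more at 408. The most were 18, at Zfp474, a zinc finger gene. They were followed by 16 at Ces1a (a carboxylesterase), 15 at Optc (the matrix protein opticin), 15 at Galnt9 (a glycosyltransferase), 14 each at Dgki (a diacylglycerol kinase), Tns4 (a focal adhesion protein) and Timp3 (an inhibitor of metalloproteinases), and 13 each at Rad51b (a DNA repair protein), Prelp and Epyc (matrix proteoglycans), Gm4861 and 1700034E13Rik. Genes close to each other share members. Chromosome 15 held 31.2 members per 100 protein-coding genes and the X chromosome 4.97, with the others between. As a share of all AcH2B siControl regions, members made up 17.4% on chromosome 15 and 16.6% on the X chromosome.

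The strongest member lay upstream of Efemp1, in a chain of 9 over 14628 bp that ran across the start of the gene. At chr11:28847881-28850755 the AcH2B folds were 11.8, 13.1 and 10.5 in siControl, siME1 and siME2, with 48 fragments at the siControl summit. AcH3 was listed there at 6.06 in siME1 and 6.82 in siME2, although the nearest AcH3 siControl region lay 12809 bp away. Of the 11 members near the ends of Efemp1, 10 were listed for AcH2B in siME1 and 11 in siME2. AcH3 was listed at 6 of the 11 in siME1 and at 11 in siME2. The member over the printed promoter, chr11:28852625-28855079, had AcH2B folds of 7.05, 5.95 and 8.35 in siControl, siME1 and siME2 and AcH3 folds of 6.14 and 8.29 in the knockdowns.

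Several of the other highest-scoring members lay by genes of the extracellular matrix. By Col6a2, chr10:76623644-76625654 had AcH2B folds of 9.67, 12.8 and 6.00, in the same order. AcH3 folds there were 7.22 and 7.08 in siME1 and siME2, and an AcH3 siControl region began 179 bp away. By Dcn, which codes for the small matrix proteoglycan decorin, chr10:97518672-97519443 had AcH2B folds of 6.16, 11.7 and 10.2 and AcH3 folds of 6.66 and 7.32. Its neighbour chr10:97516515-97517822 had 8.30, 11.7 and 6.03 for AcH2B and 7.39 and 5.05 for AcH3. The siME1 value is the same for both because 1 wide siME1 region can cover several members. The nearest AcH3 siControl region was 35879 bp or more from either.

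Other high scores lay by Mrgprd, a G protein-coupled receptor gene. There chr7:145331593-145332575 had AcH2B folds of 10.5, 13.5 and 8.56 and AcH3 folds of 8.04 and 4.74. By Zfp36l2, which codes for an mRNA decay factor, chr17:84179892-84181864 had 8.31, 10.9 and 7.75 for AcH2B and 7.71 and 7.70 for AcH3. By Sik1, a salt-inducible kinase gene, chr17:31857432-31858864 had 7.01, 8.34 and 5.48 for AcH2B and 7.68 and 4.82 for AcH3. In all 12 highest-scoring members AcH2B and AcH3 were both listed in both knockdowns. Lrmda stood apart among them, since chr14:23046638-23047482 had AcH2B folds of 8.93, 6.51 and 4.03, lower in both knockdowns, and AcH3 folds of 3.08 and 4.33.

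**Figure D3:**
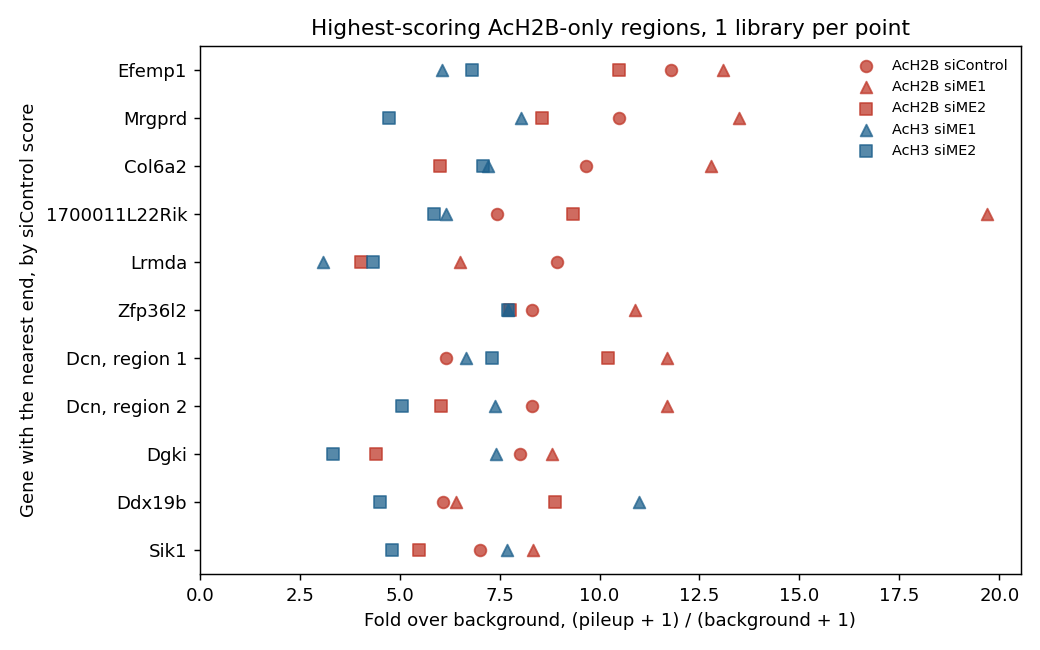
Fold over background (horizontal axis) at 11 of the 12 AcH2B-only regions of highest siControl score (vertical axis, by nearest gene), with AcH2B in red, AcH3 in blue, and the siRNA by the point's shape; each point is 1 library. AcH3 siControl has no point because the rule requires none. The AcH2B siME1 fold is above that of siControl at 10 of these 11, Lrmda being the exception. The AcH2B siME2 fold is above that of siControl only at 1700011L22Rik, Ddx19b and the first Dcn region, and below it at the others.

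Most members were listed again for AcH2B after knockdown. An AcH2B siME1 region overlapped 2521 members (84%, 82.6 to 85.2%), against 87.2% of all AcH2B siControl regions. An AcH2B siME2 region overlapped 1878 (62.6%, 60.8 to 64.3%), against 69.1%. These shares were lower than those of AcH3-overlapping regions near ends, 94.1% and 78.8%, and close to those of AcH2B-only regions farther away, 83.1% and 62.4%. Among the 751 lowest-scoring members they were 77.2% in siME1 and 50.9% in siME2, and among the 751 highest-scoring 94.9% and 83.9%. The lists differ in length, with 54649 regions for AcH2B siME1, 32465 for siME2 and 20046 for siControl. When each knockdown list was limited to its 20046 highest-scoring regions, 63.7% and 50.1% of members were listed, against 69.8% and 56.7% of all AcH2B siControl regions.

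AcH3 was listed at many members after knockdown, although at none in siControl by the rule. In siME1 it was listed at 1535 (51.1%, 49.3 to 52.9%), against 64.4% of all AcH2B siControl regions, and in siME2 at 1332 (44.4%, 42.6 to 46.2%), against 57.6%. All AcH2B siControl regions include those that overlap AcH3 in siControl, which members by the rule do not. AcH2B-only regions farther from gene ends gave 50.0% (49.0 to 51.0%) and 45.3% (44.4 to 46.3%), with intervals that overlap those of the members. At least 1 knockdown listed AcH3 at 1906 members (63.5%), both did at 961 (32.0%) and neither at 1096. These combined counts were not made over all AcH2B siControl regions. The AcH3 lists were longer after knockdown, at 34799 and 28415 regions against 21995 for siControl. Limiting each knockdown list to 20046 regions left 33.4% (31.7 to 35.1%) and 34.3% (32.7 to 36.1%) of members listed, so the order of siME1 and siME2 was not kept. The same limit left 49.5% and 49.0% of all AcH2B siControl regions. Of the members with an AcH3 siControl region over 10 kb away, 46.9% and 39.0% had AcH3 in siME1 and siME2, and of those with such a region within 1 kb 61.8% and 53.4% had. AcH3 came mostly where AcH2B was listed too. It was listed in siME1 at 58.4% of the members with AcH2B siME1 and at 13.1% of those without, and in siME2 at 60% and 18.2%. Both marks were also listed more often at the 751 highest-scoring members than at the 751 lowest-scoring, and the split was not made by score. Nor was it made over all AcH2B siControl regions, so whether it is particular to members was not tested.

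The AcH3 siME2 library ranked shared regions more like the AcH2B library of the same siRNA than like AcH3 siControl. Over the 4706 AcH2B siControl regions listed in all 6 acetylated libraries, Spearman's rho of fold was 0.435 between AcH3 siME2 and AcH2B siME2 and 0.236 between AcH3 siME2 and AcH3 siControl. AcH3 siME2 gave 0.394 with AcH3 siME1 and 0.221 with AcH2B siControl. It was 0.557 between AcH3 siME1 and AcH3 siControl and 0.409 between AcH3 siME1 and AcH2B siME1. These describe regions of single libraries, and their part in the AcH3 shares at members was not tested.

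**Figure D4:**
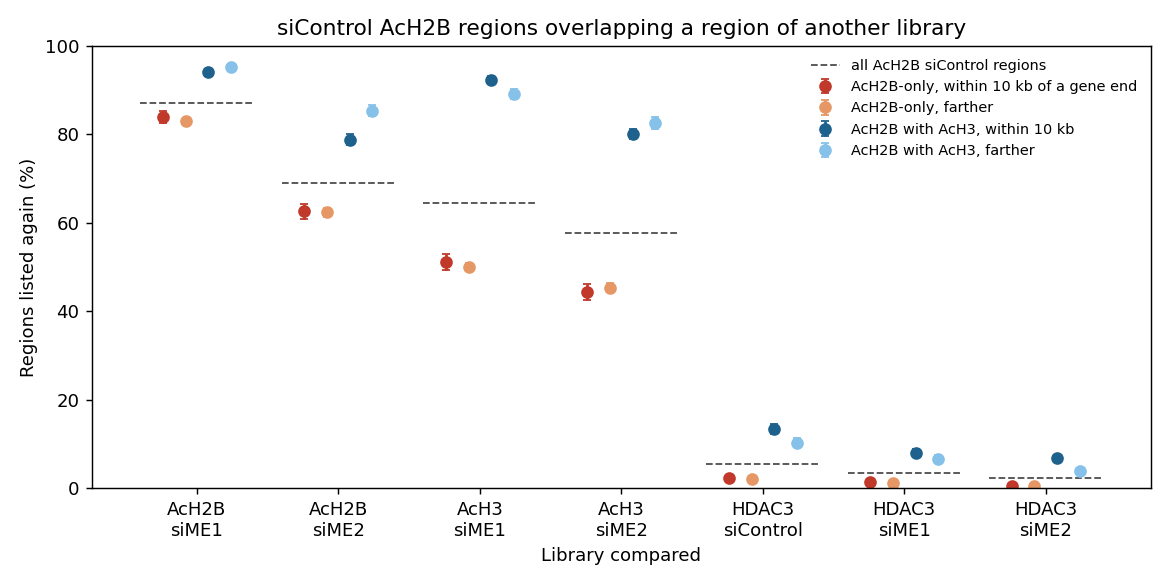
Share of siControl AcH2B regions overlapped by a region of each other library (vertical axis, %; horizontal axis, library), by whether they overlap AcH3 in siControl and lie within 10 kb of a gene end; bars are Wilson 95% intervals and dashed lines all AcH2B siControl regions. Both AcH2B-only classes lie below the dashed line in every library. In AcH2B siME1 they are at 84% near gene ends and 83.1% farther away, and in AcH3 siME1 at 51.1% and 50.0%. The dashed line includes regions that overlap AcH3 in siControl, which both classes exclude by the rule.

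Where a member was listed for AcH2B in both conditions, the fold was more often higher after knockdown, as over all AcH2B regions. For siME1 the median ratio of knockdown to siControl fold was 1.35 over 2521 members, and 40.6% of them were at least 1.5 times higher against 38.6% of all AcH2B regions listed in both. For siME2 the median ratio was 1.16 over 1878 members, and 22.4% were at least 1.5 times higher against 20.4%. At least 1.5 times lower were 3.05% of members in siME1, against 2.66%, and 4.69% in siME2, against 5.16%. The overlapping siME1 regions were wider, by a median ratio of 2.61, and 825 of the 2521 members shared theirs with another member. With the knockdown summit required to lie inside the member, the median ratios were 1.18 over 1898 members and 1.06 over 1394.

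The highest and the lowest ratios, among members in the upper part of the siControl score, were found by varied genes. By Sh3pxd2b, which codes for a podosome adaptor protein, chr11:32435974-32436752 had AcH2B folds of 3.60, 14.1 and 10.3. By Ptgfr, the prostaglandin F receptor gene, chr3:151835199-151835488 had 4.39, 15.0 and 12.9. By Il34, a cytokine gene, chr8:110794944-110797149 had 4.28, 15.5 and 10.8, with AcH3 at 11.5 and 10.2. All 3 stood within 1035 bp of an AcH3 siControl region. At the other extreme, chr3:84313279-84314070 by Trim2, a ubiquitin ligase gene, had 7.86, 3.06 and 4.6. By Gzmk, a granzyme gene, chr13:113169903-113170952 had 6.02, 3.27 and 2.88, and no AcH3 in either knockdown. These were picked for their ratios, so the size of the difference is a description.

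A smaller set of members was not listed for AcH2B after either knockdown. They numbered 383 (12.8%, 11.6 to 14.0%), against 9.49% of all AcH2B siControl regions. At 309 members no acetylated region at all was listed in the knockdowns, a count not made over all AcH2B siControl regions. Of the 383, the highest-scoring lay by Tmem212 (a transmembrane protein gene), at chr3:27860976-27861419, with a siControl fold of 6.51. Others were chr11:99084130-99084608 by Tns4, with 6.34, and chr8:92817955-92818300 by Mmp2, a matrix metalloproteinase gene, with 4.86. By Cemip, whose product takes part in hyaluronan breakdown, chr7:84089567-84089887 had 5.43. By Anxa1 (annexin A1), chr19:20394331-20395000 had an AcH2B fold of 5.09 in siControl and, without AcH2B, AcH3 at 3.99 and 5.58 in the knockdowns. By Alox5ap, the 5-lipoxygenase activating protein gene, chr5:149266910-149267686 had 5.98 in siControl and AcH3 at 3.49 in siME2. None of these 6 regions was wider than 777 bp.

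The opposite set had AcH2B in all 3 conditions and AcH3 in none, and held 345 members (11.5%, 10.4 to 12.7%). This share was not worked out over all AcH2B siControl regions, so whether it is particular to members was not tested. By Aldh3a2, a fatty aldehyde dehydrogenase gene, chr11:61223562-61224401 had AcH2B folds of 7.19, 10.6 and 7.48 in siControl, siME1 and siME2. At the start of Ces1a, chr8:93047245-93048024 had 6.41, 6.66 and 6.70, close to level across the conditions. By Ccr7, a chemokine receptor gene, chr11:99150237-99151189 had 6.30, 11.6 and 5.59. By Wdr61, which codes for a subunit of the PAF1 complex, chr9:54738069-54738490 had 6.69, 12.9 and 6.68, and an AcH3 siControl region lay 170 bp away.

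HDAC3 was seldom listed at members. It overlapped 67 in siControl (2.23%, 1.76 to 2.82%), against 5.53% of all AcH2B siControl regions, 42 in siME1 (1.40%, 1.04 to 1.89%), against 3.36%, and 17 in siME2 (0.566%, 0.354 to 0.905%), against 2.28%. AcH3-overlapping regions near gene ends gave 13.4%, 7.93% and 6.78%. AcH2B-only regions farther from gene ends gave 2.05%, 1.22% and 0.544%, close to the shares of members, so the low shares were not particular to members. The HDAC3 lists were loose, with a q above 0.05 for 92.7% to 97.8% of their regions, and their lengths of 4614, 5202 and 1597 differ. HDAC3 was in 1 library at 103 members, in 2 at 10 and in all 3 at 1. That region lay by Pim3, a serine/threonine kinase gene, at chr15:88867235-88868374, with HDAC3 folds of 3.02, 3.29 and 3.13, AcH2B folds of 5.36, 8.78 and 5.04 and AcH3 folds of 6.35 and 5.93 in the knockdowns. By Angptl4, an inhibitor of lipoprotein lipase and a PPAR target, chr17:33778941-33779271 had HDAC3 at 5.35 in siControl and 3.06 in siME1. Its AcH2B folds were 3.98, 11.4 and 6.13 and its AcH3 folds 4.34 and 2.89. By Fbn1 (fibrillin 1), chr2:125303408-125303889 had HDAC3 at 3.06 in siME1 and 2.91 in siME2, and AcH2B folds of 5.51, 3.34 and 3.65. Of the 67 members with HDAC3 in siControl, 53 (79.1%, 67.9 to 87.1%) had AcH3 in siME1, against 50.5% of the other members. In siME2 the shares with AcH3 were 70.1% (58.3 to 79.8%) and 43.8%. This split was not made over all AcH2B siControl regions, so whether it is particular to members was not tested. By siControl score, AcH3 siME1 was listed at 42.1% of the 751 lowest-scoring members and at 70.7% of the 751 highest-scoring. For AcH3 siME2 these shares were 37.5% and 63%. The scores of the 67 were not compared with those of the other members.

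Of the 17 gene lists compared, that of preadipocytes and fibroblasts had the highest share of genes with a member. A member lay near an end of 21 of 30 such genes (70.0%), against 8.77% of all protein-coding genes, and the list took 82 gene and member pairs. An AcH2B region overlapping AcH3 was also near 26 of the 30 (86.7%), against 14.9% of all genes, so the list stood high for both kinds of region. Timp3 had 14 members, Dcn 12, Lum (lumican) 9, and Fbn1 and Tgfbi (a matrix protein induced by TGF-beta) 7 each. By Dlk1, a transmembrane inhibitor of adipogenesis, chr12:109449785-109450217 had AcH2B folds of 6.02, 4.99 and 5.26 and AcH3 folds of 3.98 and 5.79. By Col1a2, a chain of collagen I, chr6:4504515-4504956 had 6.14, 6.96 and 4.67 for AcH2B, with AcH3 in siME2 alone at 4.24. By Lum, chr10:97565258-97565987 had 6.48, 10.2 and 3.50, with AcH3 in siME1 alone at 4.24. Of the 82 pairs, AcH2B was listed at 67 in siME1 and 56 in siME2, and AcH3 at 39 and 45. Over all members the shares were 84%, 62.6%, 51.1% and 44.4%, in the same order.

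Of the adipocyte genes, 9 of 38 (23.7%) had a member, against 8.77% of all protein-coding genes, and several defining ones had neither mark. An AcH2B region overlapping AcH3 was near 28.9% of the list, against 14.9% of all genes. Adipoq, Fabp4, Cd36, Cfd, Lep, Retn, Pck1 and Slc2a4, which code for adiponectin, a fatty acid binding protein, a fatty acid transporter, adipsin, leptin, resistin, a gluconeogenic enzyme and the insulin-responsive glucose transporter, had no AcH2B or AcH3 siControl region within 10 kb of an end. Any AcH2B siControl region was near 15 of the 38 adipocyte genes and 29 of the 30 preadipocyte and fibroblast genes. An AcH3 siControl region was near 27 and 29 of them, Cebpa, Plin1, Cidec, Scd1, Fasn, Dgat1 and Dgat2 among the adipocyte genes. The counts for any AcH2B region and for AcH3 were not made over all protein-coding genes. Whether either list stands apart in them was therefore not tested. The labels name the cells preadipocytes and describe induction, and how far they had differentiated was not measured in these tables. The strongest member of the adipocyte list lay by Pparg, the master regulator of adipogenesis, at chr6:115493719-115494440. Its AcH2B folds were 7.11, 7.98 and 5.85 and its AcH3 folds 5.13 and 6.71, with an AcH3 siControl region 736 bp away. By Ebf1, a transcription factor gene of the adipocyte lineage, chr11:45003158-45004187 had 5.02, 5.49 and 8.30 for AcH2B and 6.39 and 5.79 for AcH3. Rxra, whose product pairs with PPARgamma, had 5 members, and Gpam, which codes for an enzyme of triglyceride synthesis, had 3. AcH2B was listed again at 18 of the 19 adipocyte gene and member pairs in siME1 and at 13 in siME2.

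Lists of inducible genes had shares close to that of the adipocyte list. Actin cytoskeleton and SRF or YAP target genes had members at 9 of 30 (30.0%), immediate early and inflammatory genes at 8 of 28 (28.6%), NRF2 and redox genes at 6 of 22 (27.3%) and signalling feedback regulators at 6 of 26 (23.1%). The share with an AcH3-overlapping AcH2B region was higher in each, at 73.3%, 67.9%, 45.5% and 61.5%. By Fhl2, a LIM domain cofactor gene, chr1:43202078-43203209 had AcH2B folds of 5.40, 8.75 and 5.15 and AcH3 folds of 4.14 and 5.47. By Jun, an AP-1 subunit gene, chr4:95053441-95054124 had 3.96, 6.35 and 5.26 and AcH3 folds of 5.75 and 3.62, 153 bp from an AcH3 siControl region. By Cxcl12, a chemokine gene, chr6:117166594-117166885 had 4.80 in siControl, 2.29 in siME1 and no listed region in siME2. By Dusp1, which codes for a MAP kinase phosphatase, chr17:26502519-26503103 had 4.86, 5.68 and 5.14 and AcH3 at 2.86 and 5.05.

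Metabolic and chromatin lists followed. Fatty acid and cholesterol synthesis genes had members at 6 of 28 (21.4%), and insulin and growth factor signalling genes at 5 of 24 (20.8%), of which 3 were the nearest gene. By Hmgcs1, an enzyme gene of cholesterol synthesis, chr13:119688348-119688848 had AcH2B folds of 4.95, 3.45 and 6.53, with no AcH3 in either knockdown. Of the 22 genes of the list named for NADPH-producing enzymes, 2 (9.09%) had a member, near the 8.77% of all genes. By Glud1 (glutamate dehydrogenase), chr14:34317875-34318178 had 5.65, 4.13 and 3.22. By Tkt (transketolase, which does not itself make NADPH), chr14:30564807-30565214 had 4.95, 3.12 and 5.15. Neither malic enzyme gene had a member. Acetyltransferase, deacetylase and NCoR complex genes had members at 4 of 33 (12.1%). Among them Tbl1xr1, which codes for a subunit of the NCoR and HDAC3 complex, had chr3:22075857-22076596 at its start with AcH2B folds of 5.67, 8.28 and 4.14. Constitutively used genes had members at 3 of 25 (12%), namely Actb, B2m and Ldha, and the highest-scoring member of each stood within 203 bp of an AcH3 siControl region.

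Among lists of other cell types, no hepatocyte gene of 20 and no leukocyte gene of 20 had a member. Skeletal muscle genes had members at 2 of 20 (10.0%), endothelial genes at 2 of 15 (13.3%) and bone and cartilage genes at 2 of 15 (13.3%). On such small counts these shares cannot be set apart from the 8.77% of all genes. Of the endothelial genes, only Emcn was the nearest gene to its member, that of Eng standing beside Fpgs. Neuronal genes had members at 3 of 20 (15.0%), but only Slc17a6, a vesicular glutamate transporter gene, was the nearest gene to its member, the others standing beside Slc6a7 and Timp1. By Comp, a cartilage matrix protein gene, chr8:70364397-70364976 had AcH2B folds of 6.68, 7.07 and 4.17. By Spp1, the osteopontin gene, chr5:104444928-104446327 had 5.60, 7.32 and 9.05 and AcH3 folds of 6.20 and 3.56.

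**Figure D5:**
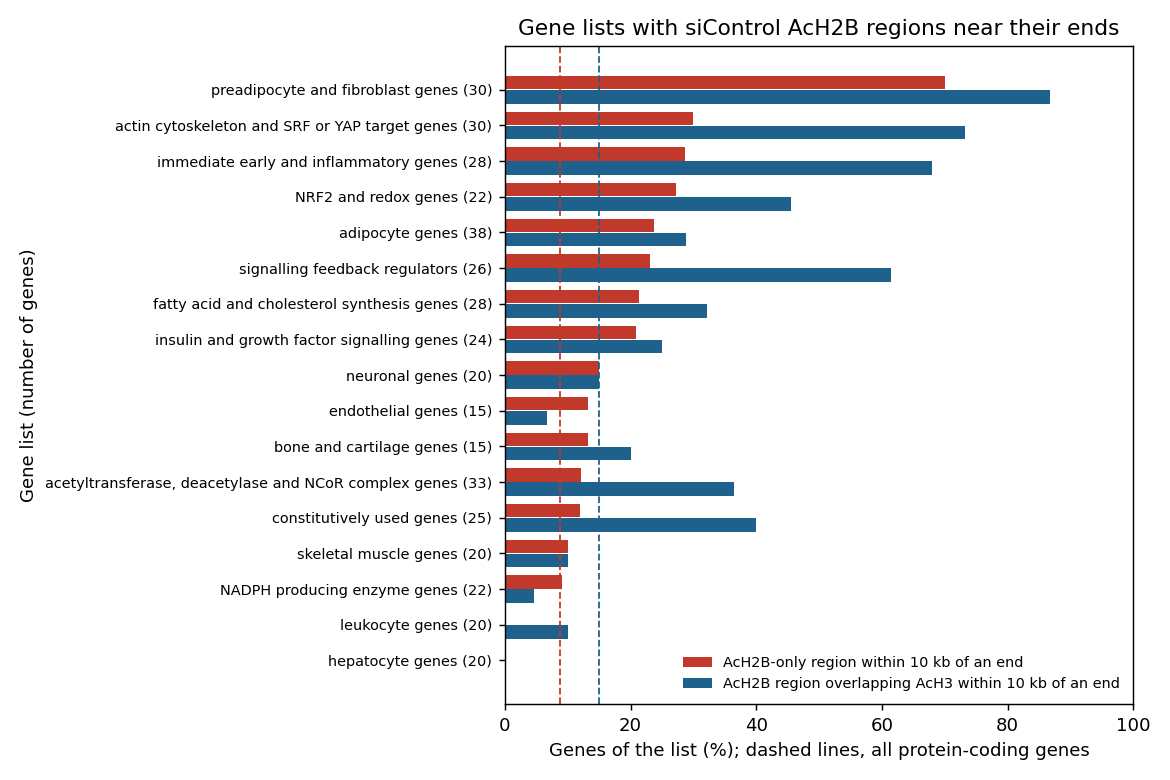
Share of the genes of each list (horizontal axis, %; list sizes in brackets) with an AcH2B-only region (red) or an AcH2B region overlapping AcH3 (blue) within 10 kb of an end in siControl; dashed lines are the shares of all protein-coding genes, 8.77% and 14.9%. The preadipocyte and fibroblast list is highest for both, at 70.0% and 86.7%, and the hepatocyte list is at 0 for both.

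The genes nearest to members were often marked by AcH3 at an end. Of the 1515 nearest genes, 949 (62.6%) had an AcH3 siControl region within 1 kb of an end, against 47.6% of all protein-coding genes. The shares were 68.4% against 42.2% in siME1 and 54.9% against 24.1% in siME2. The limit of 10 kb cut through a continuous spread of distances. Just inside it, the members by Mmadhc, Lmbr1 and Ttc7b lay 9996, 9989 and 9978 bp from an end with siControl folds of 4.26, 4.39 and 4.28. Just outside it, regions by Notch1, Timp3 and Tmem44 lay 10008, 10010 and 10011 bp away with folds of 5.57, 2.94 and 3.97.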

How the data were processed

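ChIP-seq peak tables of 9 libraries, 1 for each antibody and siRNA, were used, grouped by the antibody and siRNA labels. Per the submitters' processing notes, the authors used BWA, SAMtools, MACS2, bedtools and deepTools, with roles, versions and parameters not given in the sources used. The deposited tables lack a header, and columns were read from their values. The pileup at a summit is a coverage signal scaled by the authors, the deposited significances are −log10 p and −log10 q values, and the deposited fold is the authors' ratio of pileup plus 1 to background plus 1, which understates low-background summits. Regions with several summits were scored by the highest −log10 p. The notes name mm8, but all 19 scaffold names are those of GRCm38 and 48.2% of the AcH3 siControl midpoints were at most 1 kb from a GRCm38 gene end, so coordinates were read as GRCm38, counted from 1. Gene ends came from the GRCm38.p6 RefSeq table (21631 protein-coding genes) and strands and promoters from RefSeq windows (17274 genes). Regions sharing 1 bp counted as overlapping. Depth per library was worked out from the step of the pileup values. Python 3.11.15, pandas 2.3.3 and SciPy 1.17.1 were used, and the overlap and distance steps were tested on simulated regions. No test between conditions was made. The members, the 17 gene lists (412 genes, all matched) and the motifs were chosen with earlier results of these data known. Members are named by the gene with the nearest end. Those named were the highest-scoring of all, in neither AcH2B knockdown, with AcH3 in both knockdowns, with AcH2B in all siRNAs and AcH3 in none, with HDAC3 in at least 2 libraries or for each list, the genes with most members, the extremes of the fold ratio, and those at the 10 kb limit. The 4 members with a background over 5 times that of the genome were counted and not named, and members by 3 genes that the rule names are not reported here. The closing section gives other overlap rules, list lengths, q limits and distance limits.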

Additional observations from a re-analysis of the deposited data

How the results depend on the processing

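The count of 3002 members was 1783 with ends within 5 kb and 422 within 1 kb, and stayed within 2157 and 2998 for the other rules tried. The shares listed again depended most on what counts as listed. With a reciprocal overlap of 50%, AcH2B siME1 and siME2 gave 23.6% and 27.1%, AcH3 siME1 and siME2 23.1% and 19.9%, and HDAC3 siControl, siME1 and siME2 0.333%, 0.2% and 0.0999%. With lists of equal length, the AcH2B shares were 63.7% and 50.1% and the AcH3 shares 33.4% and 34.3%. With −log10 q of at least 2, HDAC3 was listed at 0.0733%, 0% and 0% of members. Within 1 kb of an end, AcH3 was listed at 54.3% in siME1 and 39.6% in siME2. With a summit inside the member, a setting added after seeing the data, the shares were 63.2% and 46.4% for AcH2B, 38.5% and 32.3% for AcH3 and 1.37%, 0.866% and 0.333% for HDAC3. Without members that had an AcH3 siControl region within 1 kb, also added later, AcH3 was listed at 47% and 40.8%. The median fold ratios were 1.23 (siME1) and 1.04 (siME2) for members at or above the median siControl score, and 1.18 and 1.06 with the summit inside. Counting the nearest gene only gave 3 insulin and growth factor signalling genes, 1 neuronal gene and 1 endothelial gene, and the other lists stayed within 1.5 times. No paired analysis was possible because each group has 1 library. The lack of replicates limits every comparison between siRNAs, and a region under the summit depth of a list cannot be told from one without the mark.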

Other observations

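Genes of the small leucine-rich proteoglycans, matrix proteins that bind collagen, were among the genes with chains of AcH2B-only regions. The family was picked after the values were seen, so its counts are a description. Of 16 family genes in the gene table, 12 had a member within 10 kb of an end, against 8.77% of all protein-coding genes, with 74 members near them in all. Lum, Dcn, Epyc and Kera on chromosome 10 had 9, 12, 13 and 2 members, Optc, Prelp and Fmod on chromosome 1 had 15, 13 and 3, and Omd, Aspn and Ogn on chromosome 13 had 5, 4 and 2. Neighbouring genes share some of these. Bgn on the X chromosome had 4 and Podn had 2, while Chad, Nyx, Tsku and Podnl1 had 0. Of the 74 members, AcH2B was listed again at 66 in siME1 and 48 in siME2, where all members gave 84% and 62.6%. AcH3 was listed at 22 and 25 of the 74, which is below the 51.1% and 44.4% of all members, and neighbouring members share regions, so this difference was not tested.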
